A study of Arabidopsis thaliana with 17 samples.

Results

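The plastid-encoded photosynthesis genes are the genes of the chloroplast chromosome of Arabidopsis thaliana for subunits of photosystem I (psa), photosystem II (psb), the cytochrome b6f complex (pet) and the ATP synthase (atp), together with rbcL, which encodes the large subunit of Rubisco, and ycf3 and ycf4, which encode assembly factors of photosystem I. They were chosen by locus tag and symbol among probe sets that match 1 plastid gene, which gave 35 genes of the 69 plastid-encoded genes with such a probe set. Photosystem II had 15 of them, the ATP synthase 6, the cytochrome b6f complex 6, photosystem I 5, photosystem I assembly 2 and Rubisco 1. By their mean over all 17 arrays, all 35 were bright enough to be tested, among 13648 of 22810 probe sets of the array.

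Transcripts were measured on 17 ATH1 arrays of rosette leaves from plants 4 weeks old, each array with 5 µg of total RNA from 1 pool of 10 plants. A first set of 11 arrays held stn7-1 (3 arrays), psad1-1 (2), the double mutant psad1-1 stn7-1 (3) and the wild type Col-0 (3). A second set of 6 arrays held psae1-3 (2), the double mutant psae1-3 stn7-1 (2) and the wild type Wassilewskija (2). The labels name no batch, and the sets were told apart by the scale of the deposited signals. STN7 is the thylakoid kinase of state transitions, and PSAD and PSAE are stromal subunits of photosystem I where ferredoxin docks. Each mutant was a single allele per gene, the labels name no treatment, and the wild type from which each line was derived is not given in the sources used here. Each mutant was therefore compared with the wild type of its own array set, because the accession and the set of arrays cannot be told apart. The replicate arrays A, B and C are separate pools, the number of arrays limits the precision, and a probe set passed at a Benjamini-Hochberg adjusted p of 0.05 in limma's moderated linear model over all probe sets tested.

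Chloroplast genes of these complexes are largely transcribed as multigene units, such as psaA with psaB, psbD with psbC, psbB with psbT, psbH, petB and petD, and atpI with atpH, atpF and atpA. Nuclear genes supply the other subunits, and the redox state of the electron carriers between the photosystems is known to act on transcription of psaA, psaB and psbA. Chloroplast messages carry no stable poly(A) tail, while the labelling kit named in the labels starts its copies at poly(A), so that a signal here is a level of captured transcript. In whole leaves, fewer chloroplast-rich cells and less transcript per cell cannot be told apart.

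The labels were checked against a gene of the mutants and against leaf markers. PSAE-1, the nuclear gene mutated in psae1-3, read 23.7 and 63.2 in psae1-3 and 5.25 and 10.4 in psae1-3 stn7-1, against 5105 and 4913 in Wassilewskija. For STN7 and PSAD1 the gene table held no match. The mesophyll markers RCA (Rubisco activase) and PRK (phosphoribulokinase) read 3559 to 6704 and 3198 to 5626 over the 17 arrays, while FMA, of guard cells, read 34.0 to 64.5 and EXPA7, of root hairs, read 0.833 to 18.6. Of the leaf list 2 of 6 genes and of the list for other organs and cells 2 of 11 had a named probe set. None of the 385 signals of the 35 genes in the first set, nor of the 210 in the second, lay below the background of 8.15. Some first-set signals lay close to it. For atpI they were 8.21 in Col-0 B, 8.72 in psad1-1 stn7-1 B and 9.83 in psad1-1 A. Over the first set petN read 10.6 to 43.7, petD 11.2 to 19.9 and psaC 13.6 to 34.5. With the first set filtered and fitted alone, 34 genes were tested and petD was left out as too dim. The first-set results of petD were therefore tested only because its second-set signals raised its mean.

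Within the first set the chloroplast genes differed more between arrays of one genotype than most genes did. The pooled SD of the log2 signal between arrays of a genotype had a median of 0.50 over the 35 genes and of 0.19 over all 13648 probe sets, and 18 of the 35 lay above the 95th percentile of all probe sets (0.42). In the second set the same medians were 0.14 and 0.18. The SD was larger in the first set for 32 of the 35 genes, or 91.4%, against 53.3% of all probe sets and 28 of the 32 other plastid-encoded genes tested. These shares describe arrays of different accessions and no test was made between the sets.

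**Figure D1:**
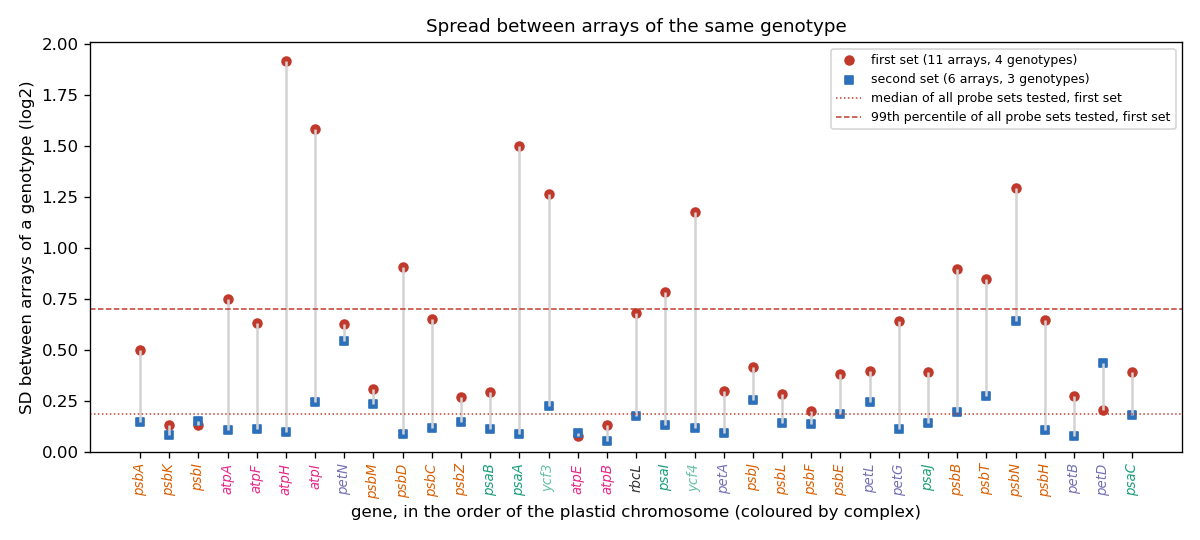
Pooled SD of the log2 signal between arrays of one genotype (vertical axis) for each of the 35 genes in chromosome order (horizontal axis), with circles for the first set of 11 arrays and squares for the second set of 6. The dotted line is the median (0.19) and the dashed line the 99th percentile (0.70) of all probe sets tested in the first set. The circles of atpH, atpI and psaA stand highest, and those of atpE, psbI, atpB and psbK lie under the median.

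The gene for the membrane-ring subunit of the ATP synthase, atpH, had the largest first-set SD of all 13648 probe sets (1.91). It read 1043, 628 and 730.0 in stn7-1, 61.5 and 1080.2 in psad1-1 and 103, 52.3 and 787 in psad1-1 stn7-1, against 886, 52.0 and 305 in Col-0. Low and high arrays stood side by side in psad1-1, in psad1-1 stn7-1 and in Col-0, while the 3 stn7-1 arrays were all high. In the second set it read 3139.5 and 3558 in psae1-3 and 3824 and 3429 in psae1-3 stn7-1, against 2981 and 2997 in Wassilewskija. The SDs of atpI (1.58), psaA (1.50), psbN (1.29), ycf3 (1.26) and ycf4 (1.17) came next among the 35 genes. The lowest atpI signal, 8.21 in Col-0 B, was near the background.

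Other chloroplast genes held steady on the same arrays. The gene atpE, for a subunit of the catalytic part of the ATP synthase, had a first-set SD of 0.07, and psbI, atpB and psbK each had 0.13. Neighbours in one transcription unit could differ. The reaction centre gene psaA ranged over 62.5 to 1124 on the 11 first-set arrays, whereas psaB, for its partner in the photosystem I core, ranged over 2209 to 4048. Across the 35 genes, which share the same arrays, the SD was smaller where the mean log2 signal was higher, with a Pearson correlation of -0.494 and a Spearman correlation of -0.654.

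**Figure D2:**
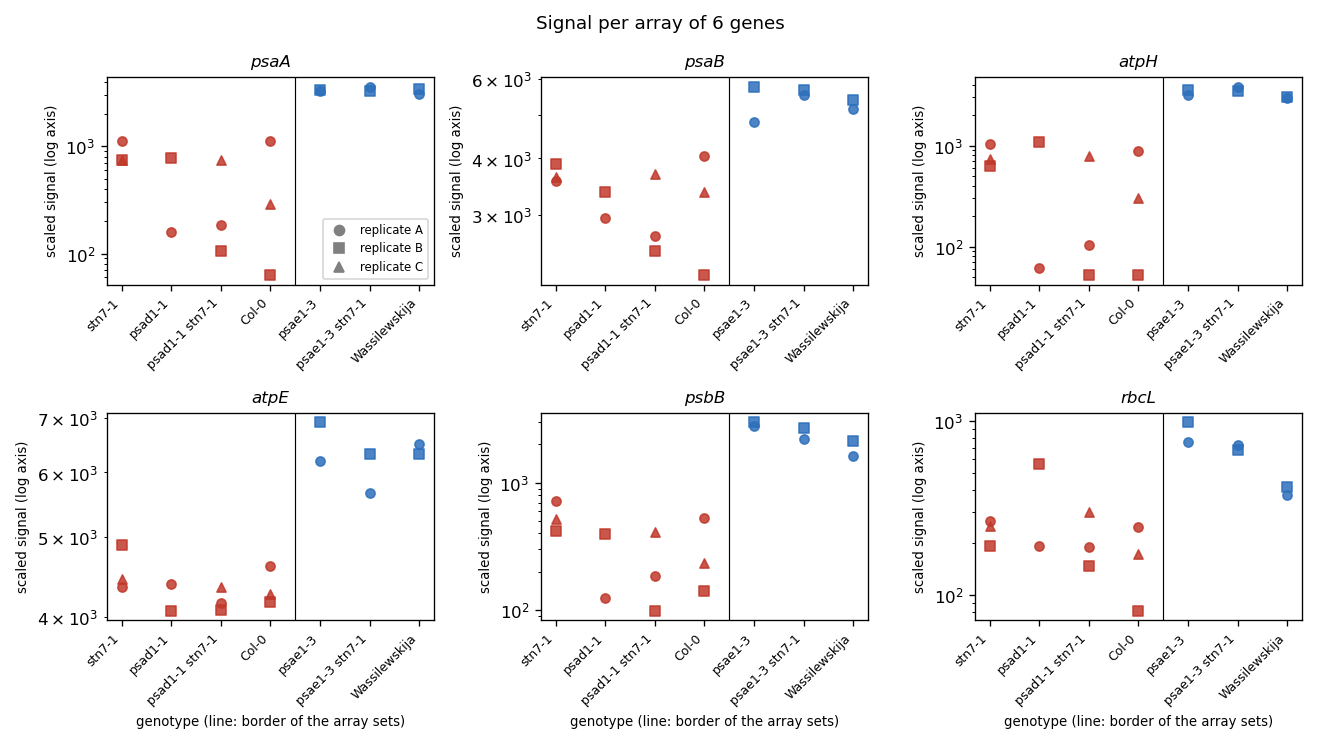
Scaled signal per array (vertical log axis) of psaA, psaB, atpH, atpE, psbB and rbcL, by genotype (horizontal axis) and replicate (marker shape), with a line between the first and the second array set. psaA and atpH spread widely in psad1-1, psad1-1 stn7-1 and Col-0, and atpE does not.

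The wide spread was shared by the 35 genes, so that 1 array tended to be high or low for most of them. For each array the median over the genes of the log2 signal minus the wild-type mean of the set was taken. It was 0.81, 0.33 and 0.27 in stn7-1 A, B and C, -0.32 and 0.31 in psad1-1 A and B and -0.27, -0.33 and 0.44 in psad1-1 stn7-1 A, B and C, against 0.48, -0.64 and 0.14 in Col-0 A, B and C. Only the stn7-1 arrays lay on 1 side of the Col-0 mean, and even they overlapped Col-0 A. By gene, stn7-1 A was the highest of its genotype for 29 of 35 genes, psad1-1 A the lower of its pair for 32, psad1-1 stn7-1 C the highest for 32, and Col-0 B the lowest for 33. In the second set the medians were 0.12 and 0.34 in psae1-3 A and B and 0.07 and 0.12 in psae1-3 stn7-1 A and B, against -0.04 and 0.04 in Wassilewskija A and B, and psae1-3 B was the higher of its pair for 34 genes.

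**Figure D3:**
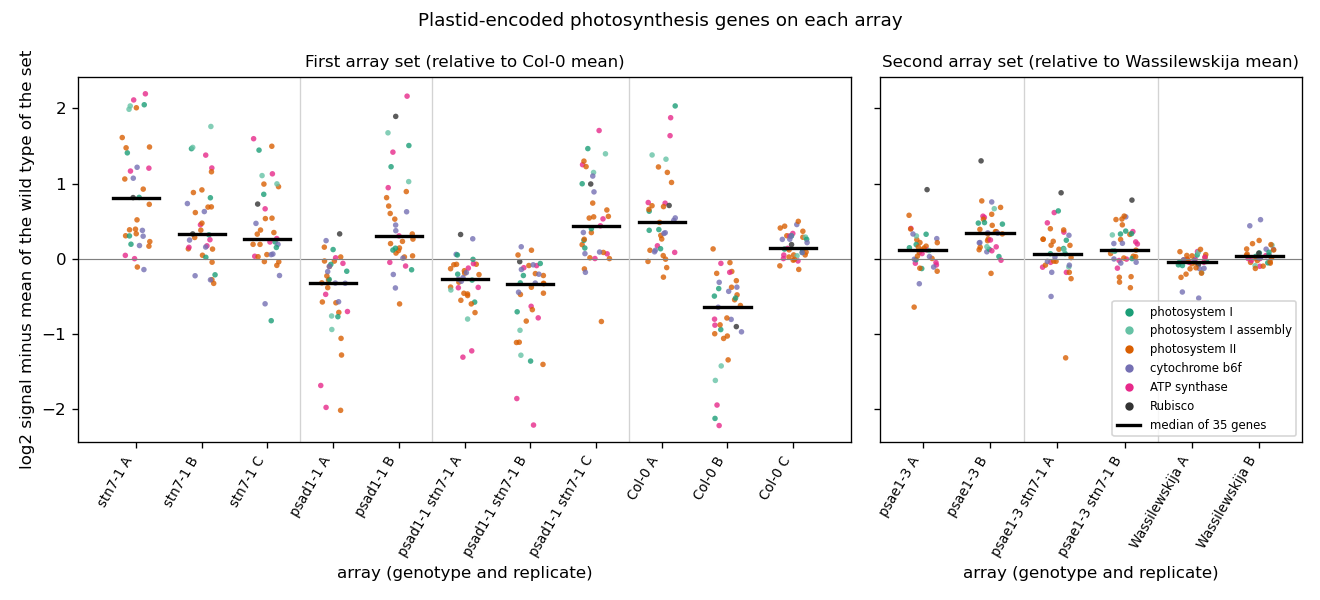
Log2 signal of each of the 35 genes minus the mean of the wild type of its array set (vertical axis), 1 point per gene, on each of the 17 arrays (horizontal axis), coloured by complex, with a bar at the median. The bars run between -0.64 (Col-0 B) and 0.81 (stn7-1 A) in the first set and between -0.04 and 0.34 in the second.

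The 6 control measures were chosen and compared after their values were seen. Those for 25S rRNA and the spike dap each ranked the arrays as the chloroplast median did in 3 of the 4 first-set genotypes. The control probe set for 25S rRNA read 1568, 1651 and 1376 in stn7-1 A, B and C, 1468 and 2128 in psad1-1 A and B and 1545, 1328 and 1779 in psad1-1 stn7-1 A, B and C, against 1198, 522 and 1077 in Col-0 A, B and C. Arrays ranked alike by 25S rRNA and by the chloroplast median in psad1-1, which has only 2 arrays to rank, psad1-1 stn7-1 and Col-0, and not in stn7-1. In the second set 25S rRNA read 15.1 to 22.1, whereas 5S rRNA read 25.4 to 107 and dap 129 to 217, both above their first-set signals. The spike control dap also ranked alike in 3 genotypes (stn7-1, psad1-1 and Col-0). All 11 of its first-set signals (0.322 to 3.25) lay below the background of 8.15. That background was itself built from control values that include dap in the first set, so it cannot judge dap. The 5S rRNA control ranked alike in psad1-1 alone and read 2.64, 7.23 and 4.69 in Col-0 A, B and C, the opposite order, with 10 of its 11 first-set signals below background. The ratios of 5′ to 3′ signal ranked alike in psad1-1 alone for actin and GAPDH and in no genotype for ubiquitin. The part of these controls in the spread was not tested.

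**Figure D4:**
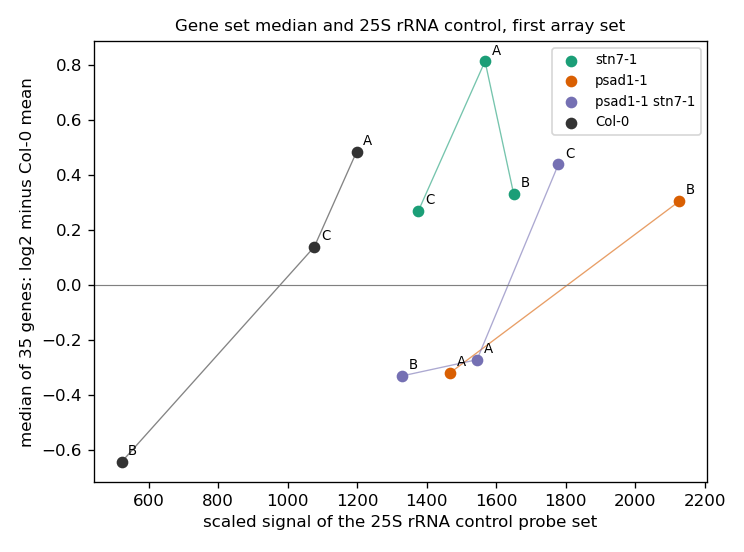
Median log2 difference of the 35 genes from the Col-0 mean (vertical axis) against the scaled signal of the 25S rRNA control (horizontal axis) for the 11 first-set arrays, labelled by replicate and joined in order of 25S rRNA within a genotype. Lines rise throughout in psad1-1, psad1-1 stn7-1 and Col-0, and the line of stn7-1 rises and falls.

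Levels of the genes also differed between the sets. The median signal was higher in the second set for 34 of the 35 genes, psbN being the exception, after both sets had been scaled alike. The widest step was that of psaC, for the iron-sulphur subunit of photosystem I, which read 13.6 to 34.5 on the 11 first-set arrays and 1230.1 to 1976 on the 6 second-set arrays. Accession, array set and this step cannot be told apart.

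In stn7-1 no chloroplast photosynthesis gene passed the test against Col-0: 0 of 35 genes were called in either direction, where 18.9% of all probe sets were. The log2 changes were nonetheless mostly above zero, in 32 of 35 genes, with a median of 0.49, beside 45.8% of all probe sets above zero and a median of -0.03. That lean rests largely on Col-0 B: without it the median was 0.11 log2, with 27 genes above zero, and without stn7-1 A it was 0.27 log2. Before adjustment 10 of the 35 had p under 0.05, all of them higher. Of all 13648 probe sets 33% had one in either direction, and 2153 had one and were higher. Photosystem I assembly had the highest group median (1.56 log2, 2 genes), followed by the ATP synthase (0.64, 6 genes), photosystem II (0.40, 15), photosystem I (0.25, 5) and the cytochrome b6f complex (0.19, 6), while rbcL stood at 0.62.

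The smallest adjusted p was that of psbD, for the D2 reaction centre protein of photosystem II. It read 606, 442 and 385 in stn7-1, against 439, 95.2 and 186 in Col-0, and the change was 1.24 log2 (SE 0.50, adjusted p = 0.0909). The lowest stn7-1 array lay below the highest Col-0 array. Its neighbour psbC, for the CP43 antenna protein, stood at 0.79 log2 (SE 0.36, adjusted p = 0.133).

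Of photosystem I, psaA read 1124, 749.9 and 740.0 in stn7-1, against 1112, 62.5 and 289 in Col-0, a change of 1.65 log2 (SE 0.81, adjusted p = 0.169). The Col-0 arrays covered the whole stn7-1 range apart from its highest array. With it in the transcription unit, psaB read 3561, 3883 and 3635 in stn7-1, against 4048, 2209 and 3367 in Col-0, a change of 0.25 log2 (SE 0.17, adjusted p = 0.355). The small subunit gene psaI was the 1 gene of 35 whose groups did not overlap, at 1189, 786 and 812 in stn7-1, against 695, 234 and 553 in Col-0, in a comparison where 17.7% of all probe sets were higher without overlap. Its change was 1.03 log2 (SE 0.43, adjusted p = 0.107).

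The highest changes were those of atpH (1.70 log2, SE 1.04, adjusted p = 0.274), psaA and ycf3 (1.60 log2, SE 0.69, adjusted p = 0.118), and the lowest those of psaJ, for a small photosystem I subunit (-0.16 log2, SE 0.22, adjusted p = 0.663), petL (-0.15 log2, SE 0.24, adjusted p = 0.723) and petD (-0.12 log2, SE 0.23, adjusted p = 0.767), both of the cytochrome b6f complex. Their 95% intervals were wide for the first 3: -0.50 to 3.89 for atpH, -0.07 to 3.37 for psaA and 0.13 to 3.06 for ycf3. The genes with a steady signal stayed close to Col-0, atpE at 0.07 log2 (SE 0.08, adjusted p = 0.582) and psbK at 0.12 log2 (SE 0.10, adjusted p = 0.432).

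The other genes named by rule overlapped as well. For psbA, encoding the D1 protein of photosystem II, the arrays read 580.0, 367 and 578 in stn7-1, against 571, 299 and 569 in Col-0, with a change of 0.11 log2 (SE 0.28, adjusted p = 0.824). The cytochrome b6 gene petB read 3349, 3303 and 3386 in stn7-1, against 3768, 2197 and 3138 in Col-0 (0.18 log2, SE 0.16, adjusted p = 0.489). For atpA, of the catalytic head of the ATP synthase, the arrays read 2156, 1280.2 and 1483 in stn7-1, against 1562, 508 and 1030.0 in Col-0 (0.77 log2, SE 0.41, adjusted p = 0.202). Each of these groups overlapped, and petB was nearly level in stn7-1 while it varied in Col-0.

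The count in stn7-1 depended on the Col-0 arrays. Without Col-0 A, 9 of the 35 genes passed as higher (psbD, psbC, psaA, ycf3, psaI, ycf4, psbE, psbB and psbH), where 19.7% of all probe sets passed in either direction, and without Col-0 C 1 did (psbZ), where 13.3% of all did. Without Col-0 B, the array lowest for 33 genes, 0 passed, where 9.72% of all did, and the changes were 0.59 log2 for psaA (adjusted p = 0.641), 0.59 log2 for atpH (adjusted p = 0.757), 0.71 log2 for psbD (adjusted p = 0.372) and -0.04 log2 for petB (adjusted p = 0.895). With the median log2 signal of the 32 other plastid-encoded genes as a covariate, chosen after seeing the data, the median change of the 35 genes was -0.07.

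**Figure D5:**
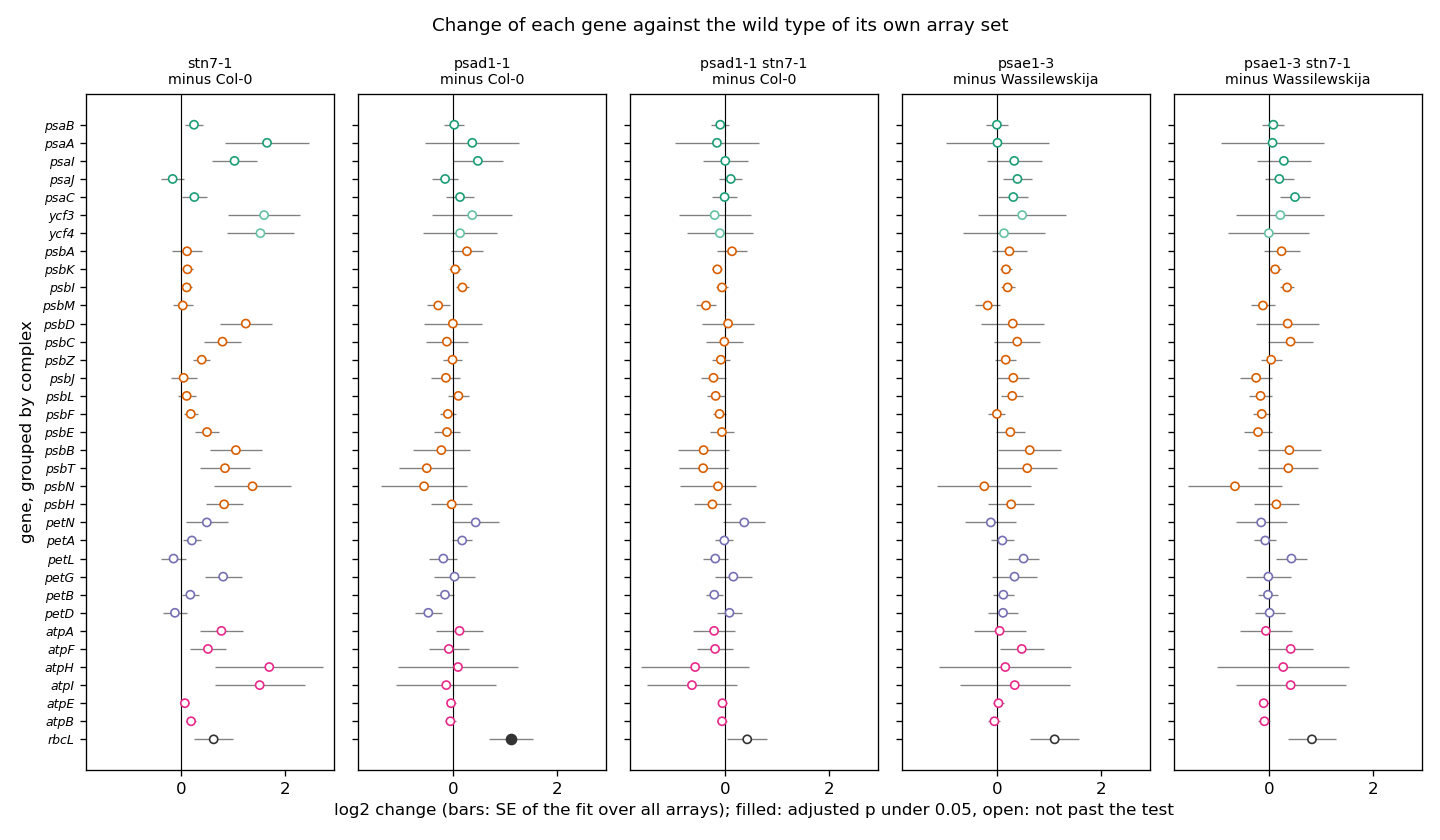
Log2 change of each of the 35 genes (rows, grouped and coloured by complex) in 5 comparisons of a mutant with the wild type of its array set (panels), with bars for the SE of the fit over all arrays. The only filled point, which marks an adjusted p under 0.05, is rbcL in psad1-1, and the points of stn7-1 lie mostly to the right of 0 with long bars.

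In psad1-1 the single gene past the test was rbcL, for the large subunit of the carbon-fixing enzyme Rubisco, and the other 34 were not called. That is 1 of 35 genes, where 40.5% of all probe sets were called and 19.3% were called higher. It was also the only 1 of the 35 with an unadjusted p under 0.05, where 48.4% of all probe sets had one. The arrays of rbcL read 190.3 and 562 in psad1-1, against 247, 81.0 and 172 in Col-0, so the lower psad1-1 array lay inside the Col-0 range. It rose by 1.11 log2 (SE 0.43, adjusted p = 0.0469), with a 95% interval of 0.21 to 2.01. The call rests on psad1-1 B: without it the change was 0.33 log2 (adjusted p = 0.637). It was also lost without Col-0 B (0.66 log2, adjusted p = 0.193), without Col-0 C (adjusted p = 0.0632) and when the first set was fitted alone (adjusted p = 0.0783).

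The median change of the 35 genes in psad1-1 was -0.01 log2 (0.13 when arrays were scaled to their medians), with 16 above zero and 19 below, beside -0.02 for all probe sets (0.12 with that scaling), of which 48.3% were above zero. Its sign turned with single arrays: the median was 0.31 without psad1-1 A, -0.32 without psad1-1 B, 0.23 without Col-0 A, -0.36 without Col-0 B (4 genes above zero) and 0.07 without Col-0 C. By complex the medians were 0.25 for photosystem I assembly, 0.13 for photosystem I, -0.05 for the ATP synthase, -0.06 for the cytochrome b6f complex and -0.10 for photosystem II. Besides rbcL the highest changes were those of psaI (0.48 log2, SE 0.48, adjusted p = 0.463) and petN (0.43 log2, SE 0.45, adjusted p = 0.474), and the lowest were psbN (-0.56 log2, SE 0.83, adjusted p = 0.629), psbT (-0.51 log2, SE 0.53, adjusted p = 0.477) and petD (-0.48 log2, SE 0.26, adjusted p = 0.161). None of these 5 passed. Groups were free of overlap for psbI, higher in psad1-1 (1827 and 1888, against 1636, 1585 and 1701 in Col-0), and petD, lower (11.2 and 12.7, against 17.7, 13.3 and 19.2 in Col-0), in a comparison where 29.1% of all probe sets were higher and 30.7% lower without overlap.

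The photosystem I core genes, in the complex that psad1-1 affects, stood at 0.37 log2 (SE 0.91, adjusted p = 0.78) for psaA and 0.02 log2 (SE 0.20, adjusted p = 0.943) for psaB. psaA read 159.6 and 772 in psad1-1, against 1112, 62.5 and 289 in Col-0, and psaB read 2957 and 3374 in psad1-1, against 4048, 2209 and 3367 in Col-0. Both psad1-1 arrays lay within the Col-0 range for each gene. For the D1 gene, psbA, the arrays read 379 and 808 in psad1-1, against 571, 299 and 569 in Col-0 (0.27 log2, SE 0.32, adjusted p = 0.537), and psad1-1 B lay above all 3 Col-0 arrays.

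For psbD the arrays read 121 and 322 in psad1-1, against 439, 95.2 and 186 in Col-0 (-0.00 log2, SE 0.55, adjusted p = 0.996). petB read 2366 and 2982 in psad1-1, against 3768, 2197 and 3138 in Col-0 (-0.16 log2, SE 0.18, adjusted p = 0.525). atpA read 576 and 1802 in psad1-1, against 1562, 508 and 1030.0 in Col-0 (0.12 log2, SE 0.46, adjusted p = 0.856). The 2 psad1-1 arrays were far apart for atpA and psbD, and each pair reached into the Col-0 range.

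In psad1-1 stn7-1 no chloroplast photosynthesis gene passed against Col-0, with 0 of 35 called, where 40.8% of all probe sets were, and 0 with an unadjusted p under 0.05, where 47.9% of all probe sets had one. The median change was -0.10 log2, with 8 genes above zero and 27 below, beside -0.02 for all probe sets, of which 48.3% were above zero. Single arrays moved it here too: without Col-0 B the median was -0.34 log2, with all 35 genes below zero, without Col-0 A it was 0.16, without Col-0 C -0.05, without psad1-1 stn7-1 A -0.04, without B of that genotype 0.08 and without its C -0.27. No gene had groups free of overlap. The highest changes were those of rbcL (0.43 log2, SE 0.38, adjusted p = 0.404), petN (0.37 log2, SE 0.40, adjusted p = 0.502) and petG (0.16 log2, SE 0.36, adjusted p = 0.761), and the lowest atpI (-0.64 log2, SE 0.86, adjusted p = 0.601), atpH (-0.57 log2, SE 1.04, adjusted p = 0.702) and psbT (-0.42 log2, SE 0.47, adjusted p = 0.517).

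Per array, rbcL read 189, 147 and 301 in psad1-1 stn7-1, against 247, 81.0 and 172 in Col-0. psaA read 183, 106 and 750.4 in psad1-1 stn7-1, against 1112, 62.5 and 289 in Col-0 (-0.16 log2, SE 0.81, adjusted p = 0.902). psaB read 2703, 2494 and 3692 in psad1-1 stn7-1, against 4048, 2209 and 3367 in Col-0 (-0.09 log2, SE 0.17, adjusted p = 0.718). Array C of the double mutant was the highest of its genotype in all 3 genes, and the groups overlapped. psbA read 403, 477 and 670.2 (0.14 log2, SE 0.28, adjusted p = 0.745) and psbD 153, 124 and 464 (0.06 log2, SE 0.50, adjusted p = 0.941) in psad1-1 stn7-1. petB read 2456, 2179 and 3154 (-0.21 log2, SE 0.16, adjusted p = 0.334) and atpA 719, 543 and 1352 (-0.21 log2, SE 0.41, adjusted p = 0.726). Here too each group reached into the Col-0 range given above, and petB passed as lower without Col-0 B (-0.42 log2, adjusted p = 0.0269), where 34.5% of all probe sets passed.

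Between the first-set mutants, 3 photosystem II genes were lower in psad1-1 stn7-1 than in stn7-1. They were psbB, for the CP47 antenna protein, psbH, for a small subunit, and psbZ, and no gene was higher. These 3 of 35 compare with 28% of all probe sets called in either direction and 15% called lower. The median change of the 35 genes was -0.40 log2, beside -0.01 for all probe sets, and 18 genes had an unadjusted p under 0.05, all lower. Of all 13648 probe sets 38.4% had one in either direction, and 2770 had one and were lower.

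The arrays of psbB read 186, 98.4 and 408 in psad1-1 stn7-1, against 724, 419 and 518 in stn7-1, a change of -1.47 log2 (SE 0.49, adjusted p = 0.0356). Those of psbH read 506, 394 and 1035 in psad1-1 stn7-1, against 1459.5, 1288 and 1013 in stn7-1, a change of -1.07 log2 (SE 0.36, adjusted p = 0.034). Those of psbZ read 1223, 1213 and 1611 in psad1-1 stn7-1, against 2024, 1964 and 1615 in stn7-1, a change of -0.48 log2 (SE 0.17, adjusted p = 0.0426). In psbB and psbZ the groups did not overlap, though the highest double-mutant array lay next to the lowest stn7-1 array, and in psbH they overlapped. These calls depend on single arrays and on the fit: 21 genes passed, all lower, without psad1-1 stn7-1 C (25.5% of all probe sets in either direction), 0 passed without psad1-1 stn7-1 A (22.6% of all probe sets) or B (21.7%), and 0 of 34 when the first set was fitted alone (28% of all; adjusted p = 0.0638, 0.0654 and 0.0635 for psbH, psbB and psbZ). Of the stn7-1 arrays, 1 gene passed without A (atpB, where 21.9% of all passed), 1 without B (psbB, 23.4%) and 3 without C (psbZ, psbH and psbT, 24%), where psbB had an adjusted p of 0.0715. With the covariate of the other plastid-encoded genes, none of these 3 calls held (adjusted p = 0.0665, 0.2005 and 0.272 for psbH, psbB and psbZ). The gene that passed there was psbM, lower (-0.68 log2, adjusted p = 0.00691).

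In psad1-1 against stn7-1, 0 of 35 genes passed, where 26.6% of all probe sets did, with a median of -0.36 log2 (-0.15 without psad1-1 A). At an unadjusted p under 0.05, 9 genes were lower. Of all 13648 probe sets 37.3% had one in either direction, and 2622 had one and were lower. Groups were free of overlap for 14 genes, all lower in psad1-1, where 26.4% of all probe sets were lower without overlap. Without psad1-1 B 3 genes passed, all lower (psbB, psbT and psbN), where 17.1% of all probe sets passed. In psad1-1 stn7-1 against psad1-1, 0 of 35 passed, where 2.09% of all probe sets did, with a median of -0.11 log2 (-0.34 without psad1-1 A, 0.28 without psad1-1 B) and 1 gene, petD, at an unadjusted p under 0.05, where 16.5% of all had one. An interaction term, the change of the double mutant less the sum of the changes of its single mutants, passed for 0 of 35 genes, where 11.8% of all probe sets passed. Its smallest adjusted p was 0.141, for psaI (-1.50 log2, SE 0.65), followed by rbcL (-1.31 log2, SE 0.57, adjusted p = 0.145).

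In psae1-3 the 35 genes leaned above Wassilewskija. In the fit over both sets 0 of 35 genes passed, where 12.3% of all probe sets did, and 1 of 35, rbcL, had an unadjusted p under 0.05, where 28.2% of all probe sets had one. Of the 35 changes 30 were above zero, beside 38.4% of all probe sets, and the median was 0.24 log2, beside -0.11. Groups were free of overlap for 21 genes, all higher in psae1-3, where 20.3% of all probe sets were higher and 36.8% lower without overlap. Without psae1-3 B the median change was 0.12 log2.

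Because the chloroplast genes spread more in the first set, a fit over both sets gives the second set an SE that pools both spreads. With the second set fitted alone 3 of 35 genes passed, all higher. Of all probe sets 8.74% passed in either direction and 4.46% passed as higher. An unadjusted p under 0.05 was found for 12 of the 35 genes, where 26.4% of all probe sets had one. Those that passed were rbcL, atpF and psbB. The arrays of rbcL read 751 and 979 in psae1-3, against 376 and 418 in Wassilewskija, a change of 1.11 log2 (SE 0.15, adjusted p = 0.00525 with the set alone; SE 0.47, adjusted p = 0.129 over both sets). The means were 865 ± 161 in psae1-3 and 397 ± 29.6 in Wassilewskija (SD, n = 2 each).

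For atpF, of the ATP synthase stalk, the arrays read 3126 and 3461 in psae1-3, against 2528 and 2207 in Wassilewskija, 0.48 log2 higher (SE 0.12, adjusted p = 0.0365 with the set alone, 0.495 over both sets). For psbB they read 2774 and 2983 in psae1-3, against 1627 and 2117 in Wassilewskija, 0.63 log2 higher (SE 0.15, adjusted p = 0.0309 with the set alone, 0.528 over both sets). In all 3 genes both psae1-3 arrays lay above both Wassilewskija arrays. Next highest was psbT (0.58 log2, SE 0.58, adjusted p = 0.545 over both sets), and the lowest were psbN (-0.24 log2, SE 0.91, adjusted p = 0.887), psbM (-0.18 log2, SE 0.24, adjusted p = 0.665) and petN (-0.12 log2, SE 0.49, adjusted p = 0.901).

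The photosystem I core genes did not pass in psae1-3. psaA read 3248 and 3344 in psae1-3, against 3098 and 3456 in Wassilewskija (0.01 log2, adjusted p = 0.962 with the set alone), and psaB read 4824 and 5763 in psae1-3, against 5151 and 5396 in Wassilewskija. Photosystem II gene psbA read 4106 and 4859.9 in psae1-3, against 3448 and 4140.4 in Wassilewskija, and psbD read 1521 and 1717 in psae1-3, against 1351 and 1267 in Wassilewskija. Only psbD was free of overlap among these 4, and its change of 0.30 log2 had an adjusted p of 0.132 with the set alone. petB read 5163 and 5874 in psae1-3, against 5009.8 and 5098 in Wassilewskija, and atpA read 5049.8 and 5872 in psae1-3, against 5085 and 5429 in Wassilewskija, with changes of 0.12 and 0.05 log2. The group medians were 0.32 for photosystem I, 0.31 for photosystem I assembly, 0.26 for photosystem II, 0.12 for the cytochrome b6f complex and 0.11 for the ATP synthase.

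In psae1-3 stn7-1 the changes were more evenly divided. In the fit over both sets 0 of 35 genes passed, where 16.2% of all probe sets did, the median was 0.09 log2 (0.17 without Wassilewskija B), beside -0.05, and 21 changes were above zero and 14 below, where 44.5% of all were above zero. Groups were free of overlap for 15 genes higher and 5 lower, where 24.7% and 32.8% of all probe sets were. The lower ones were atpB, petA, psbJ, psbL and psbF. psbI had the smallest adjusted p and was the 1 gene with an unadjusted p under 0.05, where 29.8% of all probe sets had one (0.35 log2, SE 0.13, adjusted p = 0.0885), and passed without psae1-3 stn7-1 A, where 9.37% of all probe sets passed.

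With the second set fitted alone 4 of 35 genes passed, all higher. Of all probe sets 13% passed in either direction and 5.96% passed as higher. The arrays of rbcL read 729 and 682 in psae1-3 stn7-1, against 376 and 418 in Wassilewskija, 0.83 log2 higher (SE 0.15, adjusted p = 0.00665 with the set alone, 0.255 over both sets). psaC read 1976 and 1641 in psae1-3 stn7-1, against 1230.1 and 1311 in Wassilewskija, 0.50 log2 higher (adjusted p = 0.0484 with the set alone, 0.266 over both sets). The others were atpF (0.42 log2, adjusted p = 0.0434 with the set alone) and psbC (0.42 log2, adjusted p = 0.0464). Besides rbcL and psaC the highest change was that of petL (0.44 log2), and the lowest were psbN (-0.65), psbJ (-0.24) and psbE (-0.21).

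Of the genes not yet given, psaA read 3601 and 3282 in psae1-3 stn7-1, and psaB 5536 and 5664. psbA read 4443 and 4517 and psbD 1728 and 1639.5. petB read 4940.0 and 5051 and atpA 4869 and 5244. Against the Wassilewskija values above, the groups overlapped for psaA, petB and atpA. They did not for psaB, psbA and psbD, all 3 higher in the double mutant, where 24.7% of all probe sets were higher without overlap. None of these 3 passed with the set alone: psaB 0.09 log2 (adjusted p = 0.671), psbA 0.25 (0.242) and psbD 0.36 (0.0695). In psae1-3 stn7-1 against psae1-3, 0 of 35 genes passed, where 12.3% of all probe sets did, with a median of -0.11 log2 (0.00 without psae1-3 B) and 9 genes free of overlap, all lower, where 25.3% of all probe sets were lower without overlap.

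No single fit called rbcL in all 3 of psad1-1, psae1-3 and psae1-3 stn7-1 without a covariate. Over both sets it passed in psad1-1 (adjusted p = 0.0469, and 0.637 without psad1-1 B) and not in psae1-3 (0.129) or psae1-3 stn7-1 (0.255), and with each set fitted alone it passed in psae1-3 (0.00525) and psae1-3 stn7-1 (0.00665) and not in psad1-1 (0.0783). With the covariate of the 32 other plastid-encoded genes, chosen after seeing the data, its changes were 0.98 log2 in psad1-1 (SE 0.19, adjusted p = 0.000745), 0.73 log2 in psae1-3 (SE 0.21, adjusted p = 0.038) and 0.69 log2 in psae1-3 stn7-1 (SE 0.21, adjusted p = 0.0333). With that covariate its change was 0.36 log2 in psad1-1 stn7-1 (adjusted p = 0.102) and -0.18 log2 in stn7-1 (adjusted p = 0.642). Without it, stn7-1 read 266, 190.3 and 250.5, against 247, 81.0 and 172 in Col-0 (0.62 log2, SE 0.38, adjusted p = 0.273). The comparisons within a set share their wild-type arrays.

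Other chloroplast genes on the same arrays give the setting. Of the 10 genes for the chloroplast NDH complex, which carries cyclic electron flow, 9 were tested. They had medians of 0.37 log2 in stn7-1, 0.17 in psad1-1 and -0.16 in psad1-1 stn7-1 against Col-0, and 0.45 in psae1-3 and 0.31 in psae1-3 stn7-1 against Wassilewskija, with 1 gene past the test, higher in psae1-3, where 12.3% of all probe sets passed. The 23 tested of 24 remaining genes, mostly for ribosomal proteins, RNA polymerase and other functions, had medians of 0.53, 0.24 and 0.05 in the first-set mutants and 0.31 and -0.01 in the second-set mutants, in the same order. Of these 5 passed in stn7-1 (18.9% of all probe sets), 1 in psad1-1 (40.5%) and 1 in psad1-1 stn7-1 (40.8%), all higher, and 0 in psae1-3 (12.3%) and in psae1-3 stn7-1 (16.2%). Those shares are for either direction. Counting only higher calls, the shares of all probe sets were 9.74% in stn7-1, 19.3% in psad1-1 and 19.2% in psad1-1 stn7-1.

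Nuclear genes of the same complexes could be followed only in part. Of 46 genes listed for nuclear photosystem subunits, electron carriers, ATP synthase subunits, the Rubisco small subunit and plastid sigma factors, 6 had a named match, 1 of them PSAE-1. Of the other 5, 0 passed in stn7-1, where 18.9% of all probe sets did. In psad1-1, where 40.5% of all passed and 21.1% were called lower, 2 fell. They were PSAN of photosystem I (-0.34 log2, adjusted p = 0.00509) and PSBW of photosystem II (-0.45 log2, adjusted p = 0.00706). In psad1-1 stn7-1 (40.8% of all, 21.6% lower) PSAN fell (-0.22 log2, adjusted p = 0.035). In psae1-3 stn7-1 (16.2% of all, 8.79% lower) ATPC2 of the ATP synthase fell (-0.73 log2, adjusted p = 0.037). In psae1-3 (12.3% of all) none of the 5 passed.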

How the data were processed

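Signal intensities of 22810 probe sets on 17 arrays were made by the authors with GCOS and MAS5, per the submitters' processing notes. Neither program versions nor a genome build are given in those notes. The deposited intensities had a 2% trimmed mean of 100 in the first array set and 500 in the second, a scale that the analysis plan had not foreseen, so each array was brought to 100. Signals under the 10th percentile (1.57) were set to it and log2 values taken. The dimmest 40% by mean signal and 64 control probe sets were left out, leaving 13648. limma 3.58.1 in R 4.3.3 fitted 1 mean per genotype over all arrays, with moderated variances and a trend (10 residual and 6.04 prior degrees of freedom), and two-sided p-values were Benjamini-Hochberg adjusted over all 13648. The steps were run on simulated arrays in which probe sets varied independently, each with the same spread in both sets. Those arrays lack the shared shifts and the unequal spread seen in the chloroplast genes. They therefore cannot judge the calls on these genes. SE is that of the log2 change, SD that of signals between arrays, and the background of 8.15 the 95th percentile over 315 control values with no plant target. In the first set these values include the spike control dap.

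The plastid-encoded genes, the lists and the tests were chosen with earlier results of these data known. Of 22810 probe sets, 14016 had a gene annotation, 13513 of them with 1 gene. Genes named were psaA, psaB, psbA, psbD, rbcL, petB and atpA, each gene past the test, and per comparison with a wild type the 3 highest and 3 lowest changes; steady genes (atpE, psbK) and those free of overlap were added after their values were seen. Alternatives were other scalings, floors, filters and variance settings, each set alone, a replicate block, arrays left out and, added after seeing the data, array weights and a covariate, the median log2 signal of the 32 other plastid-encoded genes.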

Additional observations from a re-analysis of the deposited data

Results flagged for a closer look

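A control probe set outside the comparisons, AFFX-r2-At-U12639, was bright in both mutants with psae1-3 and not in the wild type of their array set. Its mean signal was 1165 in psae1-3 (947 and 1384) and 865 in psae1-3 stn7-1 (894 and 836), against 3.62 and 5.31 in Wassilewskija, which lie below the background of 8.15. No gene group was tested against it.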

How the results depend on the processing

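Of the recalculated counts and medians 264 stayed within the spread or 1.5 times the count and 42 did not, and none of the named single genes that were called changed sign. In stn7-1, where none was called, psaA, psaB, psbA, rbcL, petB, atpA and atpH turned from above to below zero with the plastid covariate. Of the other genes named there by rule, psbD and ycf3 stayed above zero, and psaJ, petL and petD stayed below. Shares of all probe sets past the test in either direction under the same setting stand in brackets. In stn7-1 against Col-0 the count of genes past the test was 1 with scaling to the array median (18.7%), 8 with array weights (29%) and 0 to 9 with 1 array left out (9.72% to 19.7%); the median was -0.0733 with the plastid covariate and 0.11 to 0.74 with 1 array left out. In psad1-1 the count was 2 with that scaling (rbcL and psbI, 41.8%) and 2 with the covariate (rbcL and psbT, 41.3%), 0 without a filter on dim probe sets (23.7%), with the first set alone (40.3%), without a variance trend (39.7%) and with array weights (39.9%), and 0 to 1 with 1 array left out (28.4% to 37.3%). In psad1-1 stn7-1 it was 4 with the covariate (atpI, psbT, psbH and petB lower, 41.7%) and 0 to 1 with 1 array left out (34.5% to 37.6%). In psae1-3 it was 3 with the set alone (8.74%) and 1 with the covariate (11.8%), and the median was 0.41 with array-median scaling, 0.12 with quantile normalization, -0.0218 with the covariate and 0.12 to 0.342 with 1 array left out. In psae1-3 stn7-1 the count was 4 with the set alone (13%), 1 with the covariate (17.2%) and 0 to 1 with 1 array left out (9.37% to 11.3%).

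In psad1-1 against stn7-1 the count was 2 with the covariate (rbcL higher and psbM lower, 23.6%), 3 with array weights (26.6%) and 0 with 1 stn7-1 array left out (21.6% to 22.8%). In psad1-1 stn7-1 against stn7-1 it was 0 without a filter (15.9%), 5 with 60% of probe sets dropped (35.5%), 0 with the set alone (28%) and without a trend (27.2%), 1 with the covariate (psbM, lower, 23%), 20 with array weights (36%) and 0 to 21 with 1 array left out (21.7% to 25.5%). In psae1-3 stn7-1 against psae1-3 the median was -0.22 with array-median scaling and 0.067 with the covariate. A covariate built from other chloroplast genes removes what the 35 genes share with them, and fits without a filter test more probe sets; the cause of the other shifts was not tested. With the replicate letter as a block, psad1-1 stn7-1 against stn7-1 kept 1 call (psbB, 26.2%); psbH and psbZ had adjusted p = 0.0509 and 0.0512, and rbcL in psad1-1 still passed. Same-lettered arrays correlated at -0.224 to 0.272 in their deviations, the highest being stn7-1 A with Col-0 A. In genotypes with 2 arrays the deviations of A and B mirror each other. Whether arrays of 1 letter share a step cannot be told from these values.

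With scaling to the array median the share of all calls that were higher was 71.7% in stn7-1 (51.5% with the scaling used), 63.6% in psad1-1 (47.8%), 58% in psad1-1 stn7-1 (47.1%), 77.5% in psae1-3 (44%) and 55.4% in psae1-3 stn7-1 (45.8%), and in psae1-3 stn7-1 against psae1-3 41.6% (60.9%). The 2 or 3 arrays per genotype limit every value.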
